A study of Mus musculus with 9 samples.

Results

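Distal open chromatin that was called in every library of the study is described here. The peaks of 9 ATAC-seq libraries were merged into 73301 regions on chromosomes 1 to 19 and X, 13644 of which held a peak of each library, and 3156 of these lay more than 1 kb from every annotated transcription start site (TSS) of the mm9 mouse genome. These 3156 regions, 4.31% of all merged regions, are called shared distal regions below, and the other 10488 are called shared promoters. The shared distal regions were chosen by the peak calls themselves, so that the presence of a peak in each library is the rule and not a finding. A peak is an interval where the transposase of ATAC-seq inserted adapters more often than in its surroundings.

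The study asked how Tbx1, a T-box transcription factor gene of the pharyngeal apparatus, shapes chromatin in progenitors of the heart and of branchiomeric muscle. All 9 libraries came from Swiss Webster embryos at E9.5, pooled for each library, in which Cre had switched on GFP from 1 floxed Rosa26-GFP allele, and GFP-positive, DAPI-negative cells were sorted. The 3 Mesp1-Cre Ctrl libraries (Mesp1Cre;Rosa26-GFPflox/+) hold descendants of Mesp1-expressing cells, mainly mesoderm. The 3 Tbx1-Cre Ctrl libraries (Tbx1Cre;Rosa26-GFPflox/+) hold descendants of Tbx1-expressing cells of mesoderm, endoderm and ectoderm, and the 3 Tbx1-Cre cKO libraries (Tbx1Cre/flox;Rosa26-GFPflox/+) hold the same lineage with the remaining Tbx1 allele deleted by Cre. Because the Tbx1-Cre allele is a knock-in at Tbx1, the Tbx1-Cre Ctrl embryos carried 1 functional Tbx1 copy, whereas the Mesp1-Cre embryos carried no Tbx1 mutation. The labels name heart among the dissected tissues, and add the back for the Tbx1-Cre groups, while the methods of the study state that the heart was left out for ATAC-seq. A deletion restricted to cells that expressed Cre leaves the other cells of the embryo with a functional allele, but these carry no GFP and were sorted out.

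Open chromatin away from promoters marks enhancers, silencers and insulators. Most enhancers are open in some cell types only, whereas insulators bound by CTCF, a zinc finger protein that holds chromatin loops, are open in nearly all tissues. Promoters within CpG islands, stretches rich in unmethylated CG dinucleotides, are likewise open in most cells.

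Members of the set are shown first by their sequence, read from the plus strand of mm9 with the matched or counted bases in capitals. In the first 4, the capitals mark a match to the core of the CTCF motif (CCANNAGNNGGC on either strand), and the regions were those with the most even peak widths across libraries among the 24 candidates with such a match within 25 bases of the region's centre. CTCF matches were most frequent 150 to 100 bases below the centre, with 76 around members. The 50 bases just below and just above the centre held 18 and 31, so these examples are not typical in the position of their match.

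Bahcc1 (chr11:120172381-120172480): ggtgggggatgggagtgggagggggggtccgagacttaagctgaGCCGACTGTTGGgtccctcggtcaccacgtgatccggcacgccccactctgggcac
Scn2a1 (chr2:65506599-65506698): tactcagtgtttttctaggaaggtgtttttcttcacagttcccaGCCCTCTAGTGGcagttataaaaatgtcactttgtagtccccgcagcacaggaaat
Asb2 (chr12:104563842-104563941): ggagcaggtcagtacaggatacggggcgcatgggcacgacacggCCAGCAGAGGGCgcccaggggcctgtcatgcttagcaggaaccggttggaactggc
Bsn (chr9:108103695-108103794): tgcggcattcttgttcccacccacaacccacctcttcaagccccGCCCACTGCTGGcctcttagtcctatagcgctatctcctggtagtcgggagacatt

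In the next pair, the capitals mark the T-box motif (AGGTGTGA or its reverse complement), the sequence bound by Tbx1 and its relatives, in members where it lay near the centre.

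Gm16598 (chr6:112678931-112679030): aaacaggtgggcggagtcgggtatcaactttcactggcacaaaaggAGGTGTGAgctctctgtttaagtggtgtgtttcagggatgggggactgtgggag
Sfmbt2 (chr2:10198113-10198212): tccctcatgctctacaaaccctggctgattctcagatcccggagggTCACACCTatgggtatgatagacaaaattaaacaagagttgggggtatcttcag

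The last pair shows differences in base composition, with CG dinucleotides in capitals over the 150 bases at the centre. They were picked after their values were seen, and they are a CpG-poor member near Hoxb1 and the widest member of all.

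Hoxb1 (chr11:96234032-96234181): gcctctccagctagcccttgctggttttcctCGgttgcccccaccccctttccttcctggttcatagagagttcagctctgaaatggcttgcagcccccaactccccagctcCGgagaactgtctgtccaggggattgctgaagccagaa
Zfp825 (chr13:74666295-74666444): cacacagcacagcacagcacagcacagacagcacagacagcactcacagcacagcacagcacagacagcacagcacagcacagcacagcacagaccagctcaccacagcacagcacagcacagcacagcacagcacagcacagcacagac

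Each sequence is named by the gene with the nearest TSS. The Hoxb1 stretch held 2 CG dinucleotides and the Zfp825 stretch 0, the latter being built of short repeated units.

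The libraries differed in the length of their lists. The Tbx1-Cre Ctrl lists held 43298 to 49490 peaks, the Mesp1-Cre Ctrl lists 25485 to 42650 and the cKO lists 19772 to 29251. The longest Mesp1-Cre Ctrl list has a length that the study gives for none of its libraries. This is the list of replicate 1, with 42650 peaks. The group differences in width and in distal to promoter ratio that rest on it, and the counts of separated members, are also given without it. Ranks of width, region sets defined by all control libraries and widths at single regions are given with it only. When it was left out, 3169 distal regions had a peak in each of the other libraries. Depth in reads is unknown and bears on peak calls, so the lack of a peak does not show that a region was closed. At the promoters of marker genes, peaks within 1 kb of a TSS were found for 5 to 6 of 9 mesoderm genes in the Mesp1-Cre Ctrl libraries, for 6 of 9 in each Tbx1-Cre Ctrl library and for 4 to 5 of 9 in the cKO libraries. Endoderm genes held such a peak for 1 to 2 of 8, 1 to 4 of 8 and 1 of 8 genes in the same order, ectoderm and otic genes for 2 to 3 of 7, 4 of 7 and 1 to 2 of 7, blood and endothelial genes for 3 to 4 of 8, 3 to 4 of 8 and 2 to 4 of 8, and neural crest genes for 1 of 4, 1 to 2 of 4 and 1 of 4. The part of cell composition in the results below was not tested.

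Distal regions were the majority of regions seen in few libraries and the minority of those seen in all. Of the regions with a peak in 1 library, 89.3% were distal, and the distal share was 79.4% at 6 libraries, 72% at 7, 59.7% at 8 and 23.1% at 9. The 20661 distal regions of 1 library had a median width of 240 bp, those of 8 libraries 478.5 bp and the shared distal regions 608.9 bp, each taken as the mean over the libraries with a peak. Shared distal regions held 3297 to 3399 peaks of each library. These were 10.8% to 12.2% of all distal peaks in the Tbx1-Cre Ctrl libraries, 13.1% to 28.7% in Mesp1-Cre Ctrl and 23.5% to 47.3% in cKO, and the share was larger where the list was shorter.

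**Figure D1:**
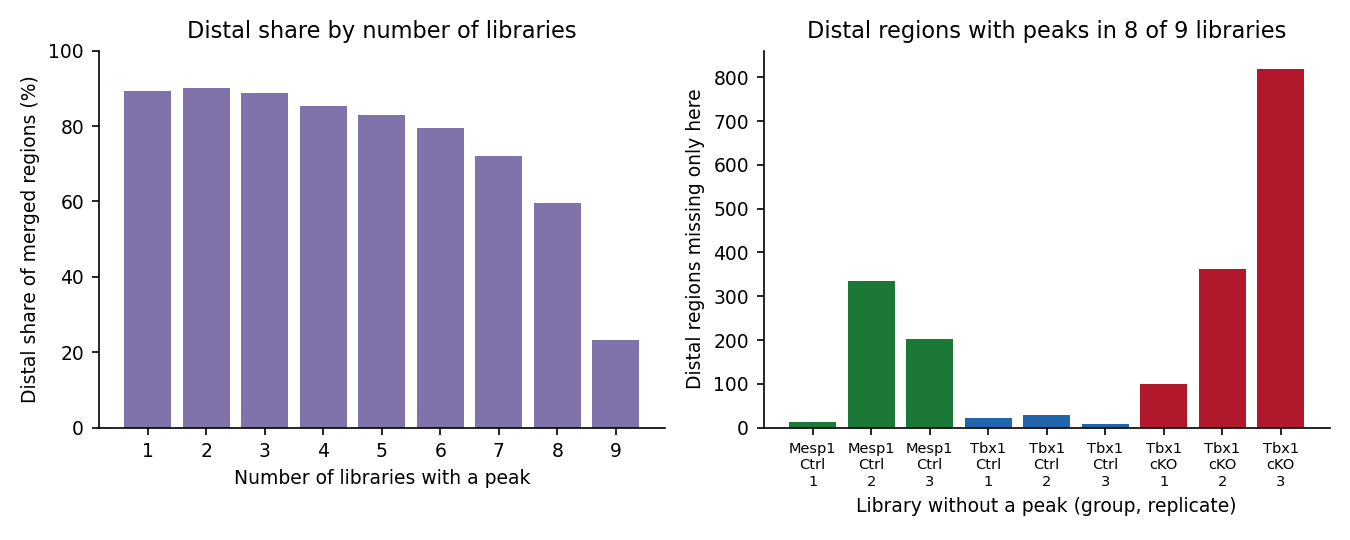
The left panel plots the share of merged regions that are distal (%, y axis) against the number of libraries with a peak (x axis), which is 89.3% at 1 library and 23.1% at 9. The right panel counts the distal regions with peaks in 8 of 9 libraries by the library that lacked one, coloured by group, with the tallest bar (820 regions) at Tbx1-Cre cKO replicate 3.

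Just outside the rule were 1891 distal regions with peaks in 8 libraries. The missing peak was in a cKO library for 1282 of them (67.8%), in a Mesp1-Cre Ctrl library for 550 (29.1%) and in a Tbx1-Cre Ctrl library for 59 (3.12%). Tbx1-Cre cKO replicate 3, with the shortest list, alone accounted for 820 (43.4%), and Tbx1-Cre Ctrl replicate 3 for 8 (0.423%). On the distance side of the rule, the member closest to a TSS lay in an intron of Coro1c, which encodes an actin-binding coronin, at chr5:114322848-114323656 and 1001 bp from the TSS. The region that missed the rule by the smallest margin lay in an intron of Fyn, a Src-family kinase gene, at chr10:39254075-39254863 and 999 bp from the TSS. Their mean widths in Tbx1-Cre Ctrl were alike, at 633.3 ± 90.1 and 658 ± 113.8 bp (SD, n = 3 each).

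Merged shared distal regions were 233 to 2657 bp long with a median of 888 bp. In 2931 of them (92.9%) a segment was covered by all 9 libraries, and in the other 225 the peaks of the libraries were linked only through each other. Their centres were intergenic in 1957 cases (62%), intronic in 1042 (33%), in coding or non-coding exons outside annotated UTRs in 106 (3.36%) and in UTR exons in 51 (1.62%). Distal regions of 1 to 8 libraries were intergenic in 51.9% and intronic in 44.2% of cases. The median distance to a TSS was 18530.5 bp for shared distal regions and 22804 bp for the others, and 22.6% against 29% lay more than 50 kb from any TSS. The nearest TSS was that of a protein-coding gene for 2171 members (68.8%).

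The members were spread thinly, at 1.2 per Mb. Of 2649 windows of 1 Mb, 1217 held no member and 110 held 5 or more. Chromosome 13 had the highest density of 1.5 per Mb (180 members), and X had the lowest of 0.408 per Mb (68 members), while the other autosomes lay between 1.08 and 1.47. X also had the smallest distal share among regions of all 9 libraries, at 16.7%. The fullest windows, with 12 members each, were chr13:21000001-22000000, around Trim27 and Zkscan3, and chr3:51000001-52000000, around Maml3, Elf2 and Foxo1. By gene, the microRNA gene AC166252.1 and the long non-coding RNA gene Gm17591 had the nearest TSS of 7 members each. Among protein-coding genes, Ets1, an ETS-family transcription factor gene, and Trim27, which encodes a zinc finger protein, had that of 6 members each. Maml3, a co-activator gene of Notch signalling, had that of 5. These windows and genes were chosen after their values were seen.

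Base composition set shared distal regions between promoters and other distal regions. In the 300 bases at the centre, defined as the middle of the segment covered by the most libraries, the median observed-to-expected ratio of CG dinucleotides was 0.363, against 0.824 at shared promoters and 0.224 at distal regions of 1 to 8 libraries. The median GC content was 54.3%, 66% and 48.7% in the same order. With a ratio above 0.6 and a GC content above 50%, thresholds commonly used for CpG islands and chosen here after seeing the data, 699 shared distal regions (22.1%) were CpG-rich, against 82% of shared promoters and 3.18% of the other distal regions. Distal regions with a peak in all 6 control libraries and in no cKO library, 514 in number, were CpG-rich in 3.5% of cases.

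Short motifs were then counted in the same 300-base windows for 21 patterns on both strands. Motifs typical of CpG-rich promoters were more frequent in shared distal regions than in the other distal regions. The SP/KLF motif (GGGCGGGG) was found in 377 members, or 11.9% (exact binomial 95% interval 10.8% to 13.1%), against 2.83% of distal regions of 1 to 8 libraries, 32.6% of shared promoters and 8.76% of all merged regions. By number of libraries, its share in distal regions was 2.3% at 1 library, 5.66% at 8 and 11.9% at 9. NRF1 (GCGCNTGCGC), a regulator of housekeeping genes, was at 2.15%, 0.253%, 9.53% and 1.8% in members, other distal regions, shared promoters and all regions, and the CCAAT box (GCCAAT), bound by NF-Y, was at 11.8%, 8.75%, 19.2% and 10.4%. The ETS motif (CCGGAAGT) was at 1.36% against 0.466%, and YY1 (AANATGGCG) at 1.05% against 0.487%, in members and other distal regions, but over all regions both were higher than in members, at 1.57% and 1.35%. The sets differ in base composition as given above, and its part in these shares was not tested.

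Motifs of lineage factors differed from one another in this respect. The GATA motif (AGATAAG), read by cardiac and endodermal factors of that family, was found in 86 members or 2.72% (2.19% to 3.35%), against 4.91% of distal regions of 1 to 8 libraries, 6.42% of the 514 control-only distal regions and 4% of all regions. The homeodomain motif (TAATTA) was at 5.64% in members, 7.05% in other distal regions and 9.73% in control-only regions, while the share in all regions (5.63%) was close to that of the members. AP-1 (TGANTCA) was at 6.53%, 8.62%, 6.81% and 7.35% in the same order. TEAD (ACATTCC) was at 6.27% in members and 6.35% in other distal regions, and MEF3 (TCAGGTTTC) at 0.982% (0.668% to 1.39%) and 0.877%. The T-box motif was in 24 members, or 0.76% (0.488% to 1.13%), against 1.11% of other distal regions, 1.17% of control-only regions and 0.956% of all regions. The interval of its share in members included the shares of other distal regions and of all regions. The E-box (CAGCTG), bound by myogenic and other bHLH factors, was as frequent in members (25.3%, 23.8% to 26.9%) as in other distal regions (24%), and reached 31.7% in control-only regions. These are counts of letters, not of bound sites, and neighbouring regions are not independent. The median GC content was 54.3% in members, 48.7% in other distal regions and 48.8% in control-only regions. Its part in the shares of these motifs was not tested.

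The CTCF core was found in 197 members, or 6.24% (5.42% to 7.14%), against 5.43% of other distal regions, 3.03% of shared promoters, 3.89% of control-only regions and 4.97% of all regions. This share depended on where the window was placed, because the matches did not lie at the centres. Around shared distal regions, 291 CTCF matches lay within 300 bases below the centre, towards lower coordinates, and 137 within 300 bases above it, a ratio of 2.12. The fullest 50-base bin was 150 to 100 bases below the centre in members and 200 to 150 bases below in the other distal regions, where the ratio was 2.66. Around peaks narrower than 350 bp, the fullest bin began 150 or 200 bases below the midpoint in each of the 9 libraries, for matches on the plus strand and for matches on the minus strand, and matches below outnumbered those above by 1.61 to 3.99 times. E-box, SP/KLF, CCAAT-box and TEAD matches were displaced the same way around members, with ratios of 1.3, 1.64, 1.7 and 1.31. AP-1 and GATA matches had ratios of 1.04 and 0.711 but did not crowd near the centre. Their numbers within 300 bases were 0.868 and 0.712 times those 700 to 1000 bases away, so no displacement could be read for them. CTCF matches of both strands were displaced to lower coordinates, so that the displacement did not follow the direction of the motif. The methods of the study give a shift of 100 and an extension of 200 bp in peak calling, with the sign of the shift not legible in the text, and its part in the displacement was not tested.

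**Figure D2:**
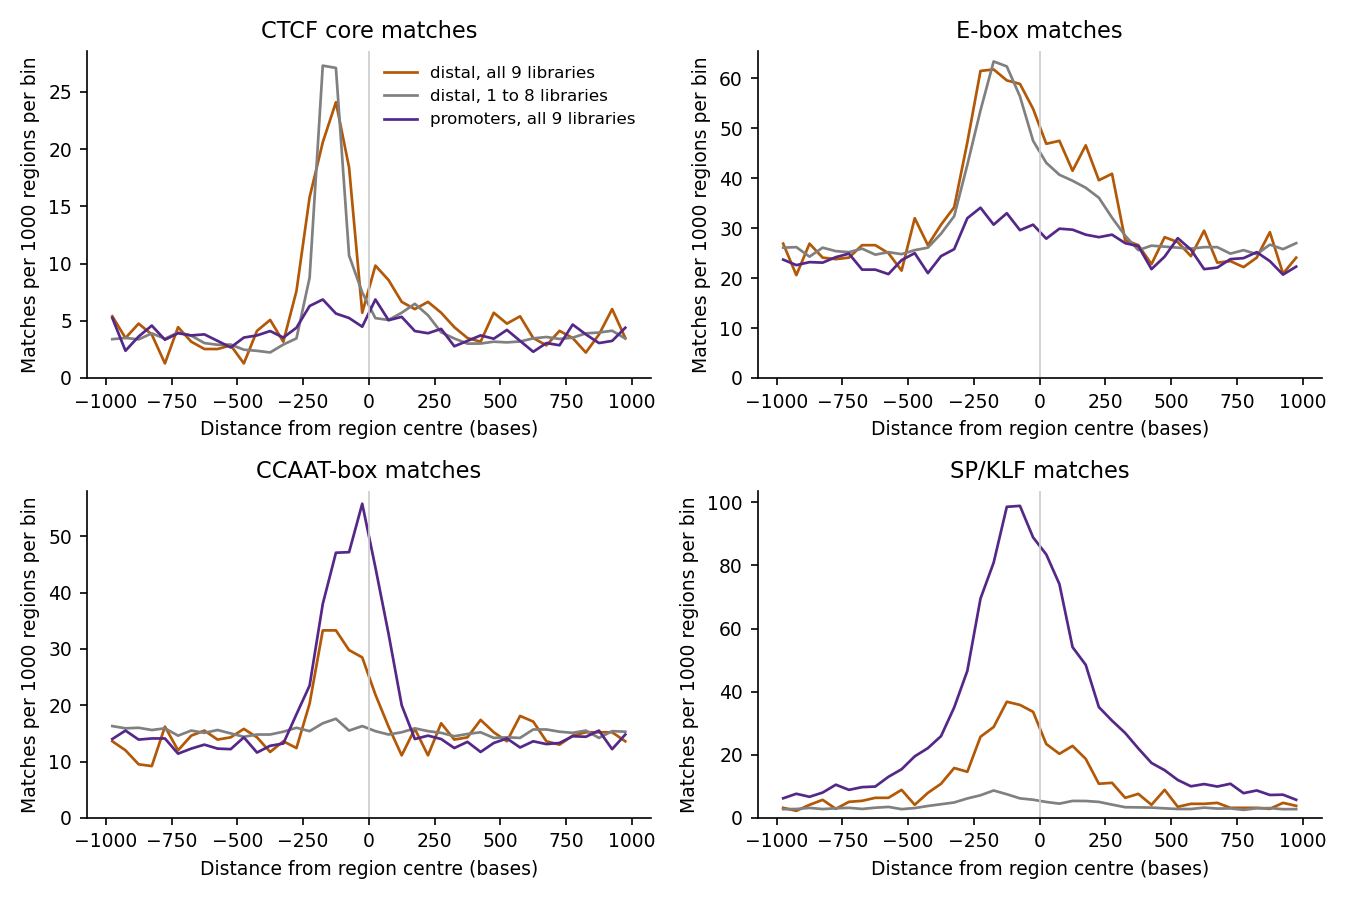
Each panel plots the matches of 1 motif per 1000 regions in 50-base bins (y axis) against the distance from the region's centre in bases (x axis), for shared distal regions, distal regions of 1 to 8 libraries and shared promoters. CTCF matches crowd below the centre in both distal sets (291 within 300 bases below and 137 above in members), and the CCAAT box rises near the centre in members and promoters but stays nearly flat in the other distal regions.

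With a window moved 175 bases to lower coordinates, a choice made after seeing the data, 8.49% of members, 8.01% of the other distal regions and 3.04% of shared promoters held a CTCF match. Windows of 200 and 500 bases at the centre gave 3.64% and 11% of members against 2.59% and 10.5% of the other distal regions. The whole merged region, which is longer for members, gave 13.9% against 7.53%. Among distal regions the share in the moved window was 6.44% at 1 library, 10.9% at 7 and 8.49% at 9, so it was not highest in the regions of all libraries. SP/KLF remained at 12.3% of members against 3.38% of other distal regions in the moved window, and GATA at 2.25% against 5.01%.

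A further trait of the members was repeated sequence. The central 300 bases of 212 members (6.72%) aligned at 90% identity or more over at least 200 bases somewhere else in the assembly as well, against 3.7% of the distal regions of 8 libraries. With their own included, 85 members (2.69%) had more than 10 such alignments. A part of 6 members (0.19%) matched the mitochondrial genome, against 0.00587% of distal regions of 1 to 8 libraries (3 of 51084). The study kept uniquely mapped reads only.

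Repeats stood out among the 5 widest members. The widest was intergenic at chr13:74665960-74668277, 45569 bp from the TSS of the zinc finger gene Zfp825, and its peaks were 1953, 2024 and 2254 bp wide in Mesp1-Cre Ctrl, 2191, 2254 and 2301 bp in Tbx1-Cre Ctrl and 2130, 2098 and 2130 bp in cKO. Its central window, printed above, gave 327 alignments in the assembly, its own included. The second widest, at chr17:17963359-17966015, lay 1137 bp upstream of Mir99b, a microRNA gene, and its central window aligned to itself only. Its widths were 2199, 1998 and 2276 bp, 2131, 2439 and 2030 bp, and 1686, 1658 and 1396 bp in the same order, so that the cKO values lay below all controls (log2 cKO over Tbx1-Cre Ctrl of -0.48). The others lay nearest to Ly6c2, which encodes a monocyte surface protein, with 6 alignments, Gm17351, a long non-coding RNA gene, with 1, and Tmem125, a membrane protein gene, with 36. Their log2 ratios of mean widths, cKO over Tbx1-Cre Ctrl, were -0.09, -0.46 and 0.06. The 3 widest members with repeated centres thus kept ratios near 0, from -0.09 to 0.06.

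Whether openness differs between groups at regions that every library shares can be read from the lists only through peak width, the base pairs covered by a library's peaks in a region. The rule did not compare groups, but it keeps regions wide enough to be called in the shortest list. The median width over the 3156 members was 758.5, 706 and 735 bp in the Tbx1-Cre Ctrl libraries, 577, 515 and 447 bp in cKO, and 665, 533 and 600 bp in Mesp1-Cre Ctrl. Every cKO library lay below every Tbx1-Cre Ctrl library, and cKO and Mesp1-Cre Ctrl overlapped. The mean was 513 ± 65 bp over the cKO libraries and 733.2 ± 26.3 bp over the Tbx1-Cre Ctrl libraries (SD, n = 3 each). Their difference was -220.2 bp, or -30%, with p = 0.1 by a two-sided exact permutation test, which cannot go lower for 2 groups of 3. In Mesp1-Cre Ctrl the mean was 599.3 ± 66 bp (SD, n = 3), which differed from Tbx1-Cre Ctrl by -133.8 bp (p = 0.1, same exact test), and by -166.7 bp without Mesp1-Cre Ctrl replicate 1. Embryos were pooled within a library, so that these p-values measure the spread between libraries. The groups with shorter lists had narrower peaks, and the part of depth in these differences was not tested.

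Distal regions narrowed more than promoters. At shared promoters the medians were 911, 860 and 903 bp in Tbx1-Cre Ctrl and 730, 734 and 633 bp in cKO, a difference of -192.3 bp or -21.6% (p = 0.1, same exact test). The ratio of distal to promoter width was 0.833, 0.821 and 0.814 in Tbx1-Cre Ctrl, 0.79, 0.702 and 0.706 in cKO, and 0.777, 0.764 and 0.765 in Mesp1-Cre Ctrl. The cKO mean of 0.733 ± 0.05 differed from the Tbx1-Cre Ctrl mean of 0.822 ± 0.00942 (SD, n = 3 each) by -0.0898, with no overlap (p = 0.1, same exact test). Mesp1-Cre Ctrl, which carries no Tbx1 mutation, also lay below Tbx1-Cre Ctrl, by -0.0539 (p = 0.1, same exact test) or, without its replicate 1, by -0.058. Its values overlapped those of cKO. The difference cKO minus Mesp1-Cre Ctrl was -0.0359 (p = 0.4, same exact test), or -0.0317 without that replicate. A ratio below that of Tbx1-Cre Ctrl was seen in both other groups. These differ from Tbx1-Cre Ctrl in Tbx1 copies and list length, and Mesp1-Cre Ctrl also in lineage. The parts of these in the ratio were not tested. Against all other peaks of their own library, members had a median rank at the 76.5th, 72.5th and 74.8th percentile of width in Tbx1-Cre Ctrl and at the 63.1st, 54.9th and 47.3rd in cKO, a difference of -19.5 percentile points (p = 0.1, same exact test). In Mesp1-Cre Ctrl the ranks were 71.1, 56.5 and 61.1, a difference of -11.7 (p = 0.1, same exact test), and shared promoters ranked at 84.1 to 85.4 in Tbx1-Cre Ctrl and 70.2 to 78.9 in cKO. A lower rank was thus found neither in cKO alone nor at members alone. The rank of a fixed set of regions also depends on how many other peaks a list holds. Members ranked highest in the list of 49490 peaks and lowest in that of 19772, and the part of list length was not tested.

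**Figure D3:**
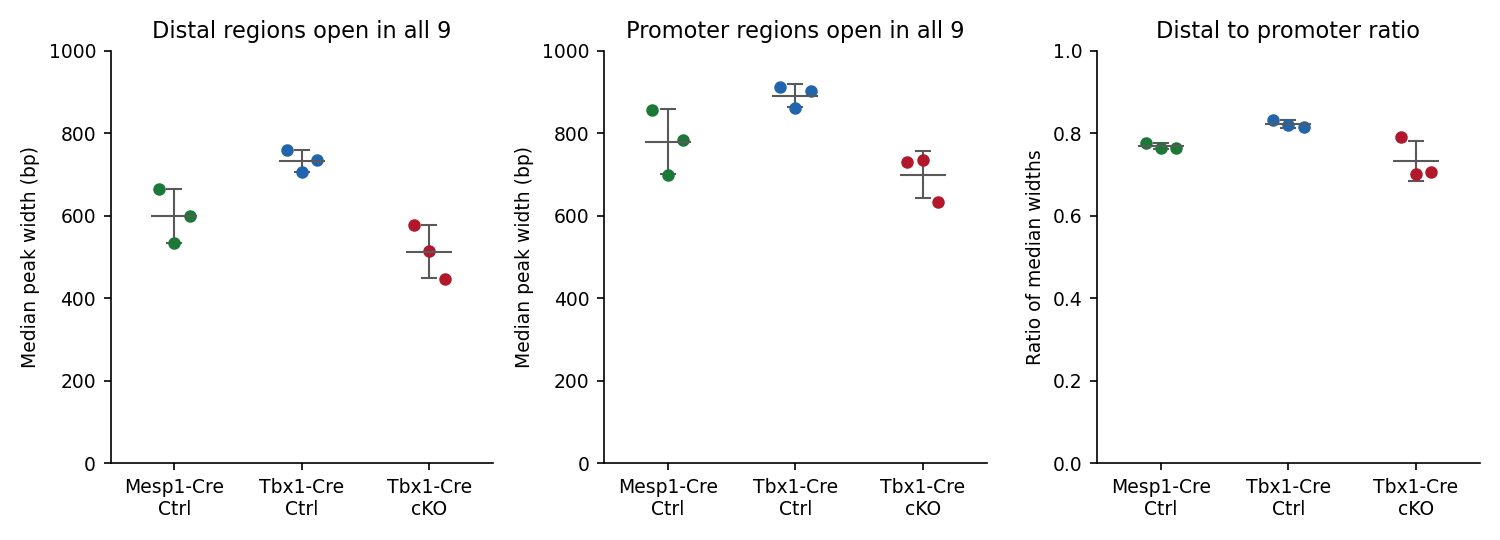
Median peak width (bp) at shared distal regions and at shared promoters, and the ratio of both, for each library (points), with the group mean and SD (bar and whiskers, n = 3). The 3 cKO libraries lie below the 3 Tbx1-Cre Ctrl libraries in each panel, and the cKO and Mesp1-Cre Ctrl ranges overlap in each.

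Region by region, 3061 of the 3156 members (97%) had a lower mean width in cKO than in Tbx1-Cre Ctrl, with a median log2 ratio of -0.52 and a middle 80% from -1.06 to -0.13. At shared promoters the share was close to this, at 95.7% (10032 of 10488), and the median was -0.32. In 1658 members (52.5%) all 3 cKO widths lay below all 3 Tbx1-Cre Ctrl widths, against 45.0% of the 14927 merged regions with a peak in each of the 6 Tbx1-Cre libraries and 41.4% of shared promoters. In 3 members (0.0951%) the cKO widths lay above, against 0.0938% of all such regions. Mesp1-Cre Ctrl widths lay below all Tbx1-Cre Ctrl widths in 982 members (31.1%), against 21.4% of the 17705 regions with a peak in all 6 control libraries, and above in 22 (0.697%), against 1.10%. Without Mesp1-Cre Ctrl replicate 1, which leaves fewer values to separate, they lay below in 1596 members (50.6%), against 41.8% of 17825 regions, and above in 30 (0.951%), against 1.35%. Both comparisons use the same Tbx1-Cre Ctrl libraries. With widths replaced by their percentile within the library, the cKO values lay below in 1123 members (35.6%), against 26.6% of all regions tested, and above in 38 (1.2%), against 1.56%. These percentiles depend on list length too, and its part was not tested.

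Members differed among themselves by composition. CpG-rich members had median widths of 796, 786 and 812 bp in Tbx1-Cre Ctrl and 646, 625 and 549 bp in cKO, a change of -24%, and the other members 746, 689 and 718 bp against 561, 486 and 419 bp, a change of -31.9%. The ratio of CpG-rich to other members was 1.07, 1.14 and 1.13 in Tbx1-Cre Ctrl and 1.15, 1.29 and 1.31 in cKO, a difference of 0.136 with no overlap (p = 0.1, same exact test). The median log2 ratio was -0.39 for CpG-rich and -0.56 for the other members, and the cKO widths lay below all Ctrl widths in 43.2% and 55.2% of them. Shared promoters split the same way, at -0.31 (40.2%) when CpG-rich and -0.43 (46.8%) when not, so this split was not particular to members. CpG-rich regions made up 82% of shared promoters and 22.1% of members. The part of composition in the larger narrowing of distal regions was not tested. Members with repeated centres had a median of -0.26. The change was -28.6% at intergenic and -31.5% at intronic members, a difference that was not tested.

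**Figure D4:**
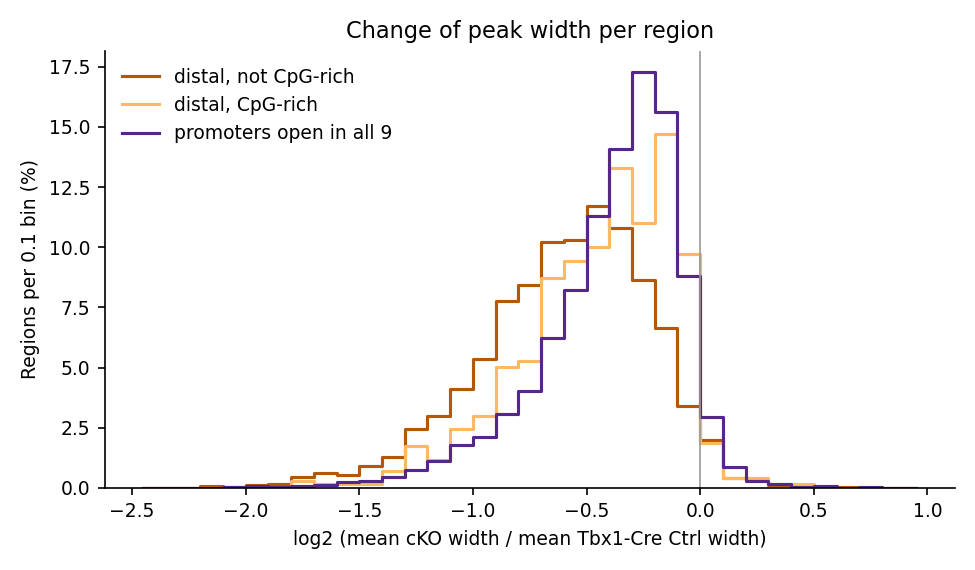
The share of regions (%, y axis) in 0.1-wide bins of the log2 ratio of mean peak width, cKO over Tbx1-Cre Ctrl (x axis), for shared distal regions that are CpG-rich or not and for shared promoters. The curve of distal regions that are not CpG-rich lies farthest to the left (median -0.56), and CpG-rich distal regions (median -0.39) lie nearer to promoters (median -0.32).

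Members with a CTCF match in the central window were 696, 636 and 672 bp wide in Tbx1-Cre Ctrl and 543, 486 and 419 bp in cKO, and members without one 763, 712 and 739 bp and 579, 517 and 449 bp. The ratio of matched to unmatched width was 0.905 ± 0.0102 over Tbx1-Cre Ctrl and 0.937 ± 0.0035 over cKO libraries (SD, n = 3 each), which differed by 0.0321 (p = 0.1, same exact test). Its sign turned when the window followed the matches: it was -0.043 in the window moved to lower coordinates and -0.031 over the whole merged region (p = 0.3 for each, same exact test), so no direction can be given for CTCF-matched members. The 4 CTCF-matched members printed above had the most even widths by choice, with a coefficient of variation of 6.4% to 10.6% over the 9 libraries. The region 20924 bp from the Bahcc1 TSS (chr11:120172031-120172900) was 696, 603 and 688 bp wide in Tbx1-Cre Ctrl and 600, 637 and 642 bp in cKO, and that in an intron of the sodium channel gene Scn2a1 (chr2:65506276-65507002) was 588, 602 and 602 bp and 555, 556 and 558 bp. The groups overlapped at the first and not at the second. Of the T-box members printed above, that nearest to Sfmbt2, a Polycomb-type gene (chr2:10197694-10198327), was 525, 466 and 627 bp wide in Tbx1-Cre Ctrl and 300, 207 and 246 bp in cKO, without overlap. The T-box member in an intron of Srgap3 (chr6:112678459-112679312), nearest to the non-coding Gm16598, was 712, 725 and 815 bp against 641, 642 and 345 bp, also without overlap. Of all members 52.5% lay lower in cKO without overlap, as did 45.0% of all regions with peaks in the 6 Tbx1-Cre libraries. The widths of the 24 members with a T-box match were not compared as a set.

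The members with the smallest ratio among those without overlap were read by rule. At chr12:70638186-70639387, nearest to the microRNA gene AC153658.1, the widths were 1134, 1124 and 853 bp in Tbx1-Cre Ctrl, 200, 271 and 217 bp in cKO and 1042, 336 and 266 bp in Mesp1-Cre Ctrl, a log2 ratio of -2.18. The next lay 9840 bp from Prmt5, an arginine methyltransferase gene (-2.13), 47869 bp from Dnahc5, an axonemal dynein gene (-2.02), in an intron of Tmcc3 (-1.98) and in an exon of Setd1b, a histone methyltransferase gene (-1.95). In the Tmcc3 region the Mesp1-Cre Ctrl widths of 249, 218 and 274 bp were as small as the cKO widths of 241, 200 and 200 bp. The smallest width in the Tbx1-Cre lists is 200 bp, and the cKO widths of these 5 regions were 200 to 354 bp. No base was covered by all 9 libraries in the regions nearest to AC153658.1, Prmt5 and Tmcc3, where at most 8, 7 and 6 libraries shared one, so that their ratios compare peaks that lie partly side by side. The 3 members with wider peaks in cKO were small. At chr10:95540065-95540766, nearest to the microRNA gene AC131596.1, the widths were 241, 263 and 261 bp in Tbx1-Cre Ctrl, 386, 406 and 410 bp in cKO and 623, 410 and 699 bp in Mesp1-Cre Ctrl (log2 ratio 0.65), and this region is 1 of the 6 that matched the mitochondrial genome. The others lay 2291 bp from C1qtnf6, a gene of the complement C1q and TNF-related family (0.48), and in an intron of Xkr6 nearest to Mir598 (0.36).

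Genes of the pharyngeal apparatus were examined through lists of gene names. Of 22208 protein-coding genes, 17.4% had a shared distal region within 50 kb of a TSS. Of the 39 annotated genes of the cardiopharyngeal list, 12 did (30.8%), among them Isl1, Tbx1, Mef2c, Hand2, Tbx18, Six2, Hoxb1, Meis1, Meis2, Fgf10 and Aplnr. Among those with none were Nkx2-5, Gata4, Gata6, Tbx5 and Tbx20, all central regulators of the heart. Of 19 annotated imprinted genes, 7 did (36.8%), namely H19, Igf2, Meg3, Peg3, Peg10, Igf2r and Airn. This list includes non-coding genes such as H19 and Meg3, whereas the share of 17.4% covers protein-coding genes only. Of 39 Hox genes, 3 did (7.69%), and the neighbouring Hoxb1, Hoxb2 and Hoxb3 shared 1 member. Of 20 genes of other or later tissues, 2 did (10%), the lung secretory gene Scgb1a1 and the pituitary hormone gene Pomc. Genes with larger intergenic surroundings have more room for a region, and neighbouring genes share regions, so these shares are descriptions.

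Of the 20 members whose nearest TSS belonged to a cardiopharyngeal, imprinted or Hox gene, 10 of the closest are given. Those at Mef2c, Meis1 and Peg10 nearest to the TSS had similar widths in all groups. The Mef2c member, in an intron of this muscle and heart regulator at chr13:83656853-83657864, was 983, 885 and 891 bp wide in Mesp1-Cre Ctrl, 803, 949 and 943 bp in Tbx1-Cre Ctrl and 840, 990 and 859 bp in cKO (log2 ratio -0.00). The Meis1 member at chr11:18920176-18920992, near a homeobox cofactor gene, was 410, 367 and 640 bp in Tbx1-Cre Ctrl and 485, 466 and 682 bp in cKO, with overlap, and the Peg10 member 1374 bp from the TSS of that imprinted gene was 715, 647 and 897 bp against 831, 581 and 657 bp.

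Several members near the other listed genes had lower widths in cKO, as had 97% of all members. The Tbx18 member 8119 bp upstream of this T-box gene (chr9:87634214-87635991) was 1421, 1201 and 1394 bp wide in Tbx1-Cre Ctrl, 783, 541 and 852 bp in cKO and 1003, 549 and 609 bp in Mesp1-Cre Ctrl, where the Tbx1-Cre Ctrl values stood apart from both other groups (log2 cKO over Tbx1-Cre Ctrl of -0.88). The same order was seen for the Meis2 member in its intron (chr2:115845933-115847338), with 1246, 1041 and 1159 bp, 716, 531 and 746 bp, and 815, 580 and 729 bp (-0.79), and the Hoxb1 member 6176 bp downstream (chr11:96233748-96234486), with 739, 613 and 622 bp, 377, 420 and 304 bp, and 440, 500 and 492 bp (-0.84). In these 3 regions, and in the Six2 member given below, every Tbx1-Cre Ctrl width lay above every Mesp1-Cre Ctrl and cKO width. At most 8 libraries shared a base in the Tbx18 member and in that Six2 member. Their widths thus compare peaks that lie partly side by side.

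The Isl1 member differed in this respect. Isl1 marks second heart field progenitors, and the region 15240 bp downstream of it (chr13:117083773-117084656) was 711, 710 and 579 bp wide in Mesp1-Cre Ctrl, 742, 804 and 668 bp in Tbx1-Cre Ctrl and 200, 201 and 547 bp in cKO, so that both control groups overlapped and all cKO values lay below them (log2 cKO over Tbx1-Cre Ctrl of -1.22). Of the 3 cKO libraries, 2 were at the floor of the width. The Hand2 member 7960 bp upstream (527, 598 and 300 bp in Tbx1-Cre Ctrl against 257, 484 and 369 bp in cKO), near a gene of the outflow tract, and the Six2 member 22730 bp downstream (862, 640 and 517 bp against 425, 201 and 491 bp, with 311, 242 and 450 bp in Mesp1-Cre Ctrl) had log2 ratios of -0.36 and -0.85. The groups overlapped for Hand2 and not for Six2. The second Peg10 member, 14190 bp downstream, was 240, 434 and 1137 bp wide in Tbx1-Cre Ctrl and 214, 248 and 238 bp in cKO, with overlap, and its Tbx1-Cre Ctrl mean rested on replicate 3. No base was covered by all 9 libraries at these Hand2, Six2 and Peg10 members, where at most 7, 8 and 6 libraries shared one. Of the 10 regions given, 5 had all cKO widths below all Tbx1-Cre Ctrl widths, a share near the 52.5% of all members.

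**Figure D5:**
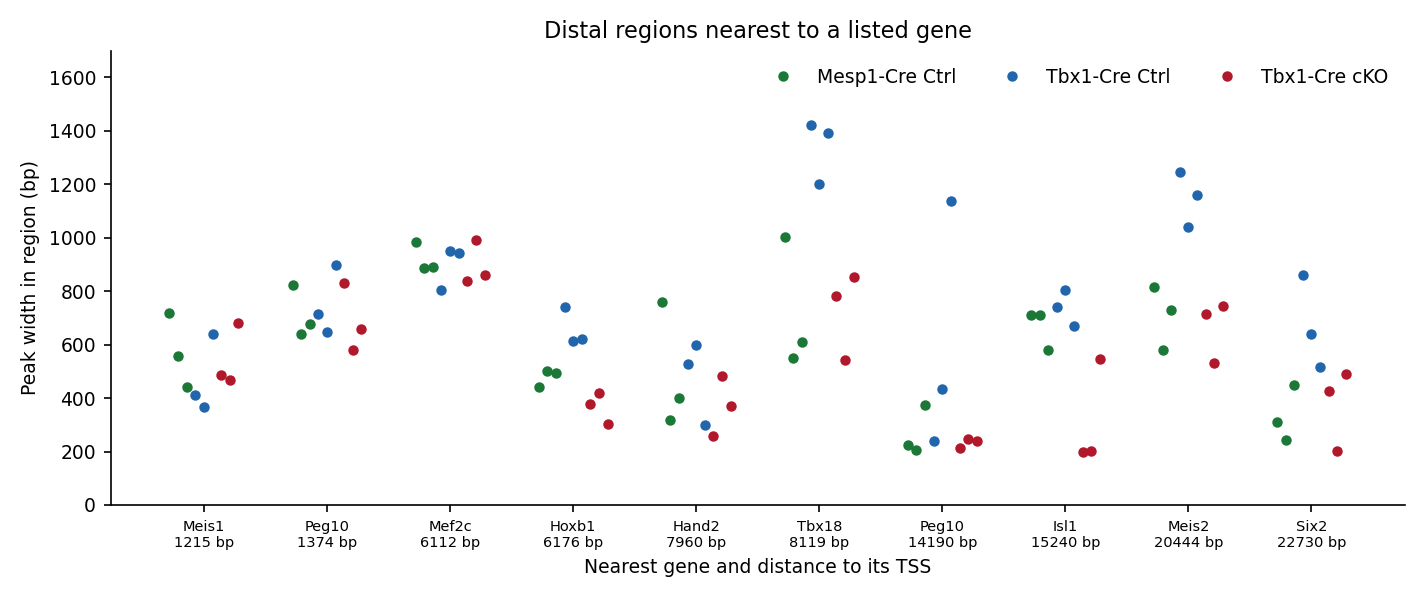
Peak width in bp (y axis) in each of the 9 libraries (points, coloured by group) at 10 of the shared distal regions closest to a gene of the cardiopharyngeal, imprinted or Hox list, ordered by distance to the TSS (x axis). The Tbx1-Cre Ctrl points stand above the other groups at Hoxb1, Tbx18, Meis2 and Six2, and all groups lie between 803 and 990 bp at Mef2c. At Hand2, Tbx18, Six2 and the Peg10 region farther from its TSS, no base was covered by all 9 libraries.

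At Tbx1 itself, no member had Tbx1 as its nearest gene, but 2 lay within 50 kb, in introns of the neighbouring Gnb1l, and these and the following regions were chosen after their values were seen. The region at chr16:18551521-18552253 was 693, 718 and 612 bp wide in Tbx1-Cre Ctrl and 554, 522 and 286 bp in cKO, without overlap, and 562, 409 and 536 bp in Mesp1-Cre Ctrl, likewise below Tbx1-Cre Ctrl. The region at chr16:18555325-18555910 was 325, 363 and 264 bp against 533, 226 and 338 bp, with overlap, and 298, 229 and 266 bp in Mesp1-Cre Ctrl. In an intron of Fgf10, a growth factor gene of the second heart field, a member at chr13:119547579-119548316 was 599, 718 and 731 bp wide in Tbx1-Cre Ctrl and 515, 541 and 433 bp in cKO (-0.46), and 702, 590 and 536 bp in Mesp1-Cre Ctrl, which overlapped both. The overlap with Tbx1-Cre Ctrl rested on Mesp1-Cre Ctrl replicate 1. Within 50 kb of Aplnr, the apelin receptor gene, the member at chr2:85003273-85004304 was 848, 1009 and 1032 bp against 771, 599 and 711 bp (-0.47), and the Mesp1-Cre Ctrl widths of 543, 486 and 653 bp were also below Tbx1-Cre Ctrl.

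Of the imprinted loci, the member nearest to H19 (chr7:149796600-149797794) lay 32552 bp upstream of this non-coding RNA gene and was 1180, 880 and 1064 bp wide in Tbx1-Cre Ctrl, 793, 891 and 740 bp in cKO and 910, 837 and 769 bp in Mesp1-Cre Ctrl. The Meg3 member 27898 bp upstream (chr12:110750358-110751313) was 956, 769 and 955 bp, 814, 590 and 606 bp, and 836, 573 and 641 bp in the same order. The groups overlapped at both regions, and the log2 ratios were -0.37 and -0.42, smaller in size than the median of -0.52 over all members. In Airn, the antisense transcript of Igf2r, an intronic member at chr17:12983211-12984163 was 887, 781 and 792 bp in Tbx1-Cre Ctrl and 709, 650 and 590 bp in cKO, without overlap. Its ratio of -0.34 was also smaller in size than the median over all members. The Mesp1-Cre Ctrl widths of 953, 729 and 930 bp overlapped those of Tbx1-Cre Ctrl and lay above all cKO widths. Of the Peg10 members given above, that nearer to the TSS had a log2 ratio of -0.13 and the farther one -1.37, larger in size than the median. Members near imprinted genes were not compared as a set.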

How the data were processed

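ATAC-seq peaks of 9 libraries, 3 per group by their labels, were analysed. Per the methods, the authors trimmed adapters with cutadapt, aligned reads to mm9 with Bowtie2 2.3.4.3, kept uniquely mapped concordant pairs, removed duplicates and mitochondrial reads, and called peaks per library with MACS2. The deposited values are interval positions in bp, with no score, so depth is unknown. Deposited intervals overlapping by at least 1 bp were merged over all lists. TSS, gene features and sequence came from NCBIM37 (mm9) with its GENCODE annotation, whose chromosome 1 (197195432 bp) holds the last peak end there (197068332).

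For widths, all 20 relabellings of 3 against 3 libraries were enumerated (two-sided exact permutation test, smallest p 0.1). Motifs were searched in 300 bases at the centre, and further copies with blastn 2.17.0 (e-value at most 1e-10 for mitochondrial matches). Python 3.11.15, numpy 2.4.6, scipy 1.17.1 and matplotlib 3.10.9 were used, and functions were tested on simulated data. Regions were named by rule: the 5 widest, the 5 smallest and 5 largest cKO ratios without overlap (3 existed), 4 CTCF-matched, 3 T-box-matched and the 12 closest to listed genes; some of these are not reported here. No sequence of chromosome 18 was used for the CTCF and T-box choices. The members and lists were chosen with earlier results of these data known, and the CpG-rich, repeat and moved-window choices after seeing the data. Intervals cover counting error only.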

Additional observations from a re-analysis of the deposited data

Results flagged for a closer look

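Mitochondrial intervals lie outside the chromosomes compared and occurred in 1 group only. Each of the 3 Mesp1-Cre Ctrl lists held 2 such intervals and the 6 Tbx1-Cre lists held 0, although the methods state that mitochondrial reads were removed. The smallest peak width was 199 bp in each Mesp1-Cre Ctrl list and 200 bp in each Tbx1-Cre list. A difference in how the lists were made and the difference between the groups cannot be told apart here.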

How the results depend on the processing

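The number of shared distal regions was 1586 when the widest 19762 peaks of every library entered and 1898 with the widest 75% of peaks, both fixed by fewer peaks entering. It was 3163 to 3977 when a library was left out, highest without Tbx1-Cre cKO replicate 3, and within 1.5 times under the other alternatives. The width difference between cKO and Tbx1-Cre Ctrl kept its sign under all alternatives run and was -252.2 to -187.2 bp with a library left out; that of Mesp1-Cre was -166.7 to -100.7 bp and that of the distal to promoter ratio -0.119 to -0.0742. The CTCF-matched to unmatched ratio difference of 0.0321 was 0.066 with 200-base windows, -0.031 over the whole merged region and -0.043 in the moved window, and 0.0263 to 0.0357 with a library left out. The share with a CTCF match was 3.64% and 11% with 200- and 500-base windows, 7.29% at the region's midpoint, 13.9% over the whole region and 8.49% in the moved window. The count of members with cKO widths below all Ctrl widths was 1763 to 2132 with a library left out, since fewer values then had to separate. Of the 117 listed gene entries, 24 had a member within 50 kb, 11 within 20 kb (9.4%, against 8.2% of protein-coding genes) and 40 within 100 kb (34.2% against 29.9%). Members with Mesp1-Cre Ctrl widths below all Tbx1-Cre Ctrl widths numbered 982, and 1596 without Mesp1-Cre Ctrl replicate 1, a setting added after seeing the data. With the replicate number as a block, the width differences stayed at -220.2 and -133.8 bp, the ratio differences at -0.0898 and 0.0321, and the exact sign-flip permutation p was 0.25, the smallest possible. Deviations of same-numbered cKO and Ctrl libraries had correlations of 0.067, -0.006 and 0.036 across members, against -0.058 to 0.029 for pairs with different numbers. Whether same-numbered libraries shared more than a number cannot be told from these values. The regions left out as mitochondrial-like, CpG-rich or repeated were chosen after seeing the data.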
